A study of Mus musculus with 6 samples.

Results

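The ZFP36 proteins and the CCR4-NOT complex form one of the main routes by which short-lived mRNAs are destroyed. ZFP36, ZFP36L1 and ZFP36L2 are RNA-binding proteins with a pair of CCCH zinc fingers that hold AU-rich elements in 3′ untranslated regions (3′ UTRs). They recruit CCR4-NOT, which shortens the poly(A) tail and so opens the mRNA to decapping and decay. Within CCR4-NOT, CNOT1 is the scaffold, CNOT2 and CNOT3 form the module at its C-terminal end, CNOT6 and CNOT6L are deadenylases of the CCR4 type, and CNOT7 and CNOT8 are deadenylases of the CAF1 type. The 10 genes that encode these proteins were followed here among the 51912 genes of the count table. They were listed by name, but the group was chosen from a measured value, the higher level of Zfp36l2 in Bud31-vKO, so that difference is given as a description and supports nothing. All 10 had reads in each library and passed the filter on low counts, which left 15240 genes for testing.

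The samples were titled spermatogonial stem cells, the cells that maintain the male germ line, and came from C57BL/6J mice at postnatal day 4. Cells of digested testis that carried THY1 and lacked c-KIT were sorted, and their RNA was amplified with Smart-Seq2, a method for full-length cDNA from very little RNA. Each genotype, wild type and Bud31-vKO, had 3 libraries. In Bud31-vKO mice Cre had removed a loxP-flanked Bud31, a gene of the spliceosome. The labels used here name neither the promoter that drives Cre nor the number of cells or animals behind a library, so p-values rest on a spread between libraries that may be technical only. The table heads its columns C1 to C3 and T1 to T3. C was read as wild type and T as Bud31-vKO, a convention that the labels do not spell out, and every direction below rests on it.

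Where 3 values are given for a genotype, they are its libraries 1, 2 and 3 in that order. Library totals ran from 13240704 to 18744466 reads. Wild type library 3 and Bud31-vKO library 2 stood apart with 13762 and 12464 genes detected, against 18171 to 22300 in the other 4. Levels are CPM, the share of a library's reads scaled with TMM factors. Below 3 reads, which is 0.166 to 0.222 CPM, a count cannot be told from 0. Bud31 measured 138, 96.8 and 158 CPM in wild type against 47.2, 67.6 and 80.4 CPM in Bud31-vKO, with no overlap. The 15 germ cell markers summed to 3930 to 4540 CPM in wild type and to 2020 to 2740 CPM in Bud31-vKO, also with no overlap. Markers of peritubular myoid and stromal cells, 11 genes led by collagens and Dcn, summed to more than the germ cell markers in each of the 6 libraries (10700 to 21700 CPM in wild type against 8360 to 14900 CPM in Bud31-vKO). Reads of both marker sets were thus in every library, and levels below are those of the sorted material as a whole, not of stem cells alone. In such samples fewer cells of a type and less RNA per cell cannot be told apart.

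The mRNAs of the ZFP36 family themselves carry the element that these proteins bind. A window of 29 bases around the 9-base core of an AU-rich element (TTATTTATT in DNA letters) was found once in the annotated 3′ UTR of each of the 3 family mRNAs. It was also found once in that of Cnot6l, the single CCR4-NOT gene of the 6 with a complete 3′ UTR annotation that held it. The annotation marks the 3′ ends of the coding Cnot8 transcripts as incomplete, and Cnot8 was not searched. The sequences are shown because they are what the zinc fingers read. They are in mRNA sense, 5′ to 3′, with the core in capitals, from GENCODE M21 transcripts on GRCm38, all encoded on the minus strand at chr7:28376951-28376979, chr12:80108167-80108195, chr17:84184914-84184942 and chr5:96071161-96071189 in the order given.
Zfp36: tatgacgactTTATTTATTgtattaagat
Zfp36l1: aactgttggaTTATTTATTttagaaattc
Zfp36l2: actatttaacTTATTTATTatcttgtgaa
Cnot6l: agggaagagaTTATTTATTtttgtttcct
Of 20952 protein-coding genes with a 3′ UTR, 7.58% held this core on the mRNA strand. The shorter motif TATTTAT, which lies within the core, was found 3 times in the 3′ UTR of each family gene and of Cnot6l, 2 times in Cnot6, once in Cnot3 and in Cnot7, and not in Cnot1 or Cnot2. This shorter motif was present in 27.5% of the 20952 genes. A match is a description of the letters and not evidence of binding.

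Zfp36l2, the family member known for roles in oocytes and blood cell precursors, separated the genotypes, every Bud31-vKO library lying above all 3 of wild type. Its level was 87.5, 72.8 and 45.1 CPM in wild type libraries 1 to 3, from 1200, 1318 and 774 reads, and 222, 232 and 224 CPM in Bud31-vKO, from 3031, 3246 and 3025 reads. The groups did not overlap, and the Bud31-vKO libraries lay close together although they differed widely in the number of genes detected. On average this was 226 ± 5.31 CPM against 68.5 ± 21.5 CPM (SD, n = 3 each), 3.30-fold, and on the log2 scale 1.72 ± 0.36 (SE). The coefficient of variation was 31.5% in wild type and 2.35% in Bud31-vKO. With each library left out in turn the log2 fold change lay between 1.51 and 1.93, and in the 4 libraries with most genes detected it was 1.48. The gene (ENSMUSG00000045817) occupies chr17:84183931-84187947 in GRCm38, is read from the minus strand and has 2 exons. An annotated antisense gene overlaps it, and whether the counting used strand is not given in the sources used here.

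Zfp36l1, a close relative that restrains growth in several cell lineages, lay in the same direction with a smaller difference. It measured 58.1, 113 and 73.2 CPM in wild type against 142, 145 and 158 CPM in Bud31-vKO. The groups did not overlap, and wild type library 2 came nearest to the Bud31-vKO libraries. The log2 fold change was 0.87 with a 95% interval from 0.00 to 1.73, and edgeR gave an unadjusted p of 0.0503 and an adjusted p of 0.9997.

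Zfp36, which encodes tristetraprolin and is itself switched on within minutes by growth factors and inflammatory signals, was by far the most abundant of the 10 genes. It measured 736, 1460 and 791 CPM in wild type against 1030, 1060 and 1930 CPM in Bud31-vKO. The groups overlapped, since wild type library 2 lay above Bud31-vKO libraries 1 and 2. The log2 fold change was 0.43 with a 95% interval from -0.48 to 1.34.

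**Figure D1:**
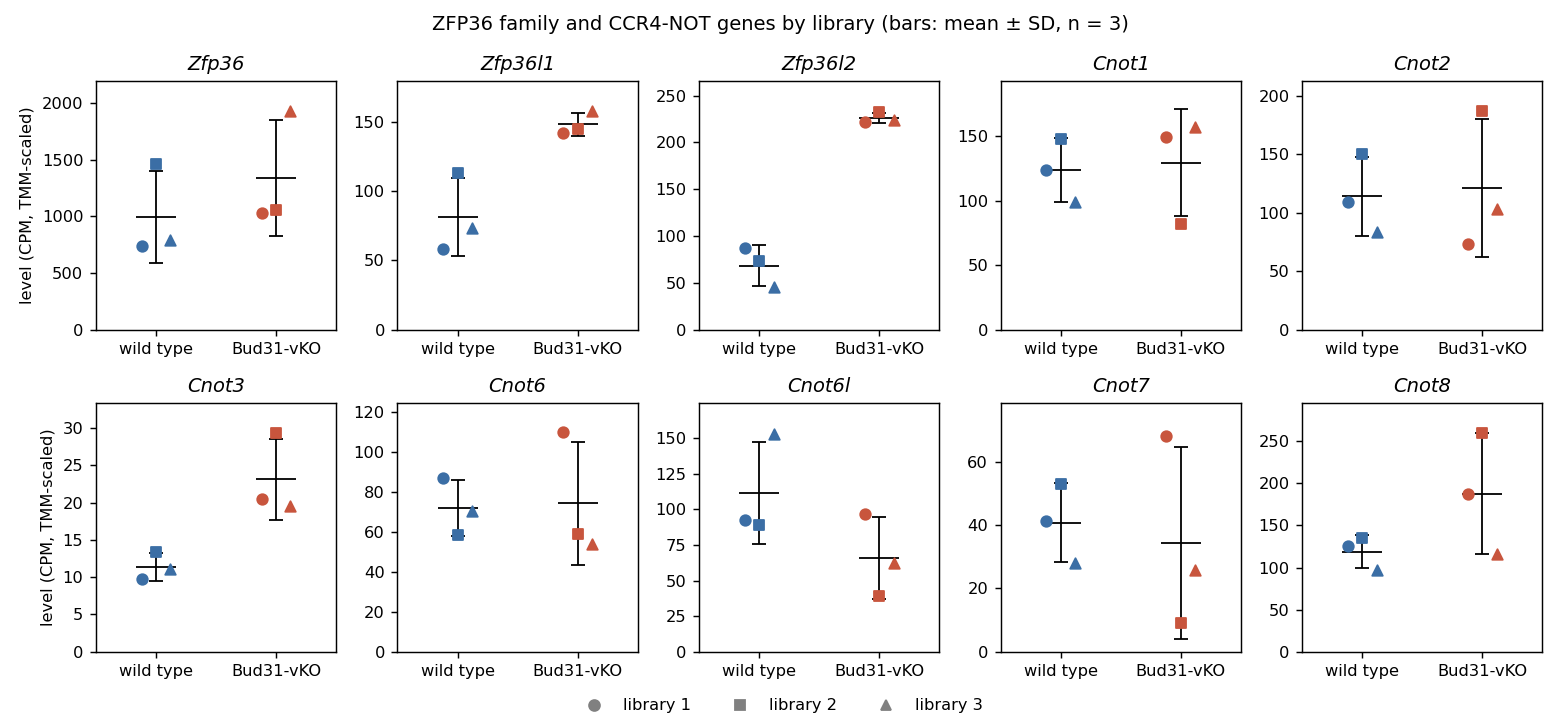
Levels of the 10 genes in CPM (vertical axis, starting at 0, own scale per gene) in the 3 wild type libraries (blue) and the 3 Bud31-vKO libraries (red). Points are libraries, with a shape for each library number, and black bars give the mean and SD. For Zfp36l2, Zfp36l1 and Cnot3 all red points lie above all blue points, while the groups overlap for the other 7 genes.

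For Cnot1, Cnot2 and Cnot3, the scaffold of CCR4-NOT and the module at its end, the intervals were wide and left the direction unresolved. Cnot1, the platform on which the complex is built, measured 124, 148 and 98.5 CPM in wild type against 149, 81.7 and 157 CPM in Bud31-vKO. The lowest value belonged to Bud31-vKO library 2 and the groups overlapped. On the log2 scale the difference was 0.06 with a 95% interval from -0.83 to 0.95. Cnot2 measured 109, 150 and 83.1 CPM in wild type against 72.9, 187 and 103 CPM in Bud31-vKO, so that Bud31-vKO held both its lowest and its highest library. Its log2 fold change was 0.09, with an interval from -0.97 to 1.15, and -0.54 in the 4 libraries with most genes detected. Cnot3, the partner of CNOT2, had 9.70, 13.4 and 11.1 CPM in wild type against 20.5, 29.3 and 19.5 CPM in Bud31-vKO, from 133 to 410 reads per library. These groups did not overlap. Cnot3 differed by 1.02 on the log2 scale, but its interval ran from -1.07 to 3.10. Its exons overlap Leng1 on the other strand, which was counted at 0 to 11.3 CPM and was highest in Bud31-vKO library 1.

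The deadenylases differed in direction from one another, and in none of the 4 did the groups separate. Cnot6l, an enzyme known for its part in clearing maternal mRNAs from the egg, measured 92.5, 89.3 and 153 CPM in wild type against 96.8, 39.2 and 62.1 CPM in Bud31-vKO. Bud31-vKO library 1 lay within the wild type range and the other two below it. Its log2 fold change of -0.76 (95% interval from -1.84 to 0.33) was -0.18 in the 4 libraries with most genes detected. Cnot6, its paralogue, measured 87.0, 58.8 and 70.4 CPM in wild type against 110, 59.1 and 54.2 CPM in Bud31-vKO, a log2 fold change of 0.05 with an interval from -1.01 to 1.11.

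Cnot8, a CAF1-type enzyme, measured 125, 135 and 96.7 CPM in wild type against 187, 260 and 116 CPM in Bud31-vKO. Bud31-vKO library 3 fell within the wild type range. Its log2 difference was 0.66 (95% interval from -0.23 to 1.55), and 0.23 in the 4 libraries with most genes detected. Cnot7, its paralogue, which male mice need for fertility, varied most of the 10 genes among the Bud31-vKO libraries. It measured 41.3, 52.9 and 28.1 CPM in wild type against 68.1, 9.21 and 25.7 CPM in Bud31-vKO, with a coefficient of variation of 88.5% in Bud31-vKO. Its log2 fold change was -0.25 with all libraries, with an interval from -2.15 to 1.65, and 0.21 without Bud31-vKO library 2, where it had 129 reads. The exons of Cnot7 overlap those of Zdhhc2 on the other strand, counted at 0 to 31.0 CPM.

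**Figure D2:**
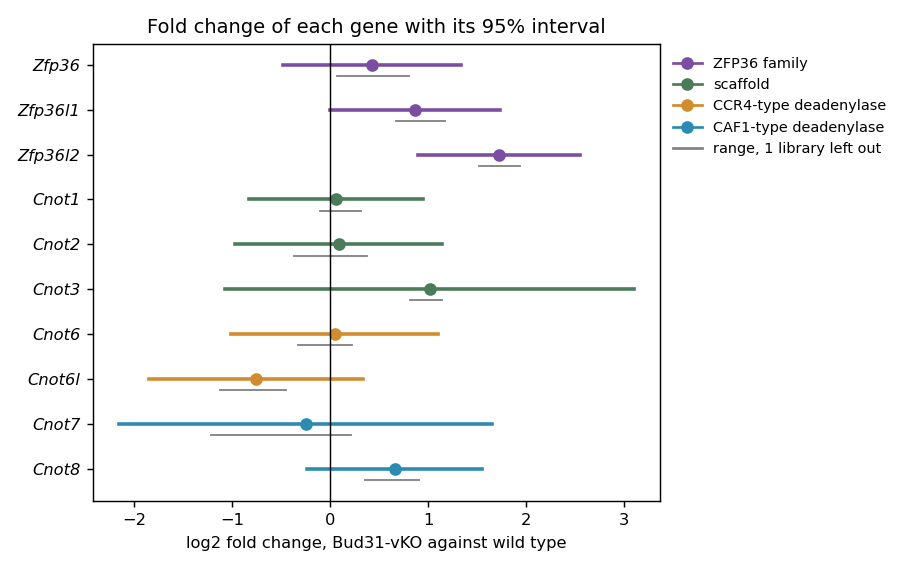
The log2 fold change of each gene, Bud31-vKO against wild type (horizontal axis, 0 means no difference), as a point with its 95% interval as a coloured bar. Grey lines give the range when 1 library is left out. The interval lies wholly above 0 for Zfp36l2, from 0.89 to 2.55, and spans 0 for the other 9 genes, for Zfp36l1 just so. Zfp36l2 was chosen for its higher level in these same libraries, so its interval is a description and supports nothing.

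With Benjamini-Hochberg adjustment over all 15240 genes, edgeR called 0 of the 10 genes. The background was 0% of tested genes called higher and 0% called lower, and each of the 10 adjusted p was 0.9997. DESeq2 on the same counts called Zfp36l2 alone of the 10 genes (adjusted p = 0.00241), against 0.112% of tested genes called higher and 0.197% called lower. At an unadjusted p under 0.05 edgeR had 1 of the 10 genes, Zfp36l2, against 1.08% of tested genes higher and 1.82% lower. The libraries of the genotypes were fully separated for 3 of the 10 genes, all higher, against 4.76% of tested genes higher and 6.39% lower. Of the 10, 8 had a log2 fold change above 0, as did 51.1% of all tested genes, and the median was 0.26 against 0.02 over all tested genes. Since the group was assembled around Zfp36l2 in this same contrast, nothing is read from these shares. In the 4 libraries with most genes detected 8 of 10 were above 0, against 52.6% of the 17136 genes tested there, and the median was 0.21.

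Scaled per length (RPKM, CPM per kilobase of the longest annotated transcript), the 10 genes spanned a wide range of levels. For Cnot8, whose coding 3′ ends are annotated as incomplete, that length may be too short and the RPKM too high. In wild type Zfp36 stood at 356 ± 144 RPKM and Cnot8 at 56.7 ± 9.54 RPKM (SD, n = 3 each). Cnot2 at 38.6 ± 11.5, Zfp36l1 at 27.3 ± 9.55 and Zfp36l2 at 19.4 ± 6.10 RPKM came next, and the libraries of each overlapped those of its neighbours in this order. Cnot1, Cnot6l, Cnot6 and Cnot7 lay together between 14.7 RPKM for Cnot1 and 10.5 RPKM for Cnot7, and Cnot3 was lowest at 2.63 ± 0.43 RPKM. In Bud31-vKO Zfp36 and Cnot8 again led, at 480 ± 182 and 89.5 ± 34.3 RPKM. Zfp36l2 at 63.9 ± 1.50 RPKM then stood before Zfp36l1 at 49.7 ± 2.86 and Cnot2 at 41.0 ± 20.1 RPKM (SD, n = 3 each). Zfp36l2 thus stood behind Cnot2 and Zfp36l1 in wild type and before both in Bud31-vKO, where it overlapped Cnot2 but not Zfp36l1.

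Ratios of these per-length levels within a library do not depend on how libraries are scaled. Zfp36l2 relative to Cnot1 was 1.68, 1.17 and 1.09 in wild type against 3.54, 6.74 and 3.39 in Bud31-vKO. All 3 Bud31-vKO libraries lay above wild type, the highest being library 2, where Cnot1 was lowest. Zfp36l2 was chosen for its higher level in these same libraries, so this separation supports nothing. Zfp36l1 relative to Cnot1 also separated the groups, with 1.31, 2.14 and 2.09 in wild type and 2.69, 4.98 and 2.83 in Bud31-vKO. Zfp36 relative to Cnot1 overlapped, at 17.8, 29.5 and 24.2 against 20.9, 38.8 and 36.9. Zfp36l2 relative to Zfp36l1 was 1.28, 0.544 and 0.522 in wild type and 1.32, 1.35 and 1.20 in Bud31-vKO. Wild type library 1 lay among the Bud31-vKO values, so that this ratio did not separate the groups. Zfp36 made up 85.6% to 89.9% of the summed family level in wild type and 76.8% to 85.6% in Bud31-vKO. All 3 Bud31-vKO libraries lay below wild type, but wild type library 1 and Bud31-vKO library 3 were equal after rounding.

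The make-up of the deadenylase pairs overlapped between the genotypes. Cnot6l held 41.6%, 50.4% and 59.2% of the summed Cnot6 and Cnot6l level in wild type against 37.1%, 30.8% and 43.4% in Bud31-vKO. Cnot8 held 82.6% to 86.4% of the Cnot7 and Cnot8 level in wild type and 83.6% to 98.1% in Bud31-vKO, the highest being library 2. Per length, the CAF1-type pair exceeded the CCR4-type pair 1.77 to 3.78 times in wild type and 3.50 to 8.50 times in Bud31-vKO. These ranges met. In wild type that order rests on annotated lengths, 8564 bases for Cnot6l and 5736 for Cnot6 against 3888 for Cnot7 and 2099 for Cnot8. The wild type means in CPM were 111 for Cnot6l, 72.1 for Cnot6, 40.8 for Cnot7 and 119 for Cnot8, without that order. No test was run on the ratios, since 3 against 3 libraries allow a two-sided exact permutation p of 0.1 at best.

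**Figure D3:**
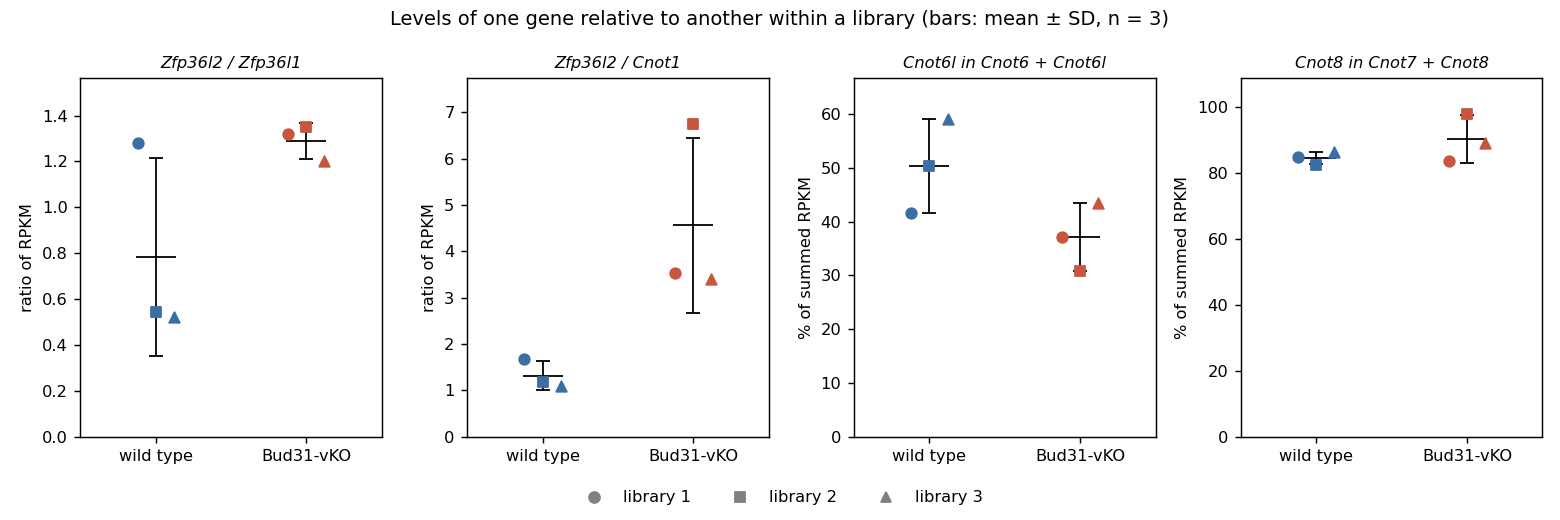
Per-length levels of one gene relative to another in each library, as ratios of RPKM (the 2 left panels) or as percent of a summed pair (the 2 right panels), with mean and SD as black bars. Of these 4 measures, Zfp36l2 relative to Cnot1 alone keeps the genotypes apart, at 1.09 to 1.68 in wild type and 3.39 to 6.74 in Bud31-vKO. Zfp36l2 was chosen for its higher level in these libraries, so this separation supports nothing. Zfp36l1 relative to Cnot1, which is not drawn, also keeps them apart.

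The rest of the decay machinery showed no common direction. It also had no call, but edgeR called 0% of all tested genes and DESeq2 0.112% higher and 0.197% lower. The lack of calls therefore says nothing about these lists. Where groups without overlap are named below, 4.76% of all tested genes had this higher and 6.39% lower. Of the other CCR4-NOT subunits and their BTG/TOB adaptors, 6 of 10 tested were higher than 0 on the log2 scale (median 0.05). Cnot9, a subunit that docks RNA-binding proteins, measured 282 ± 54.3 CPM in wild type against 184 ± 34.1 CPM in Bud31-vKO, and Noct, a relative of the CCR4 enzymes, 16.6 ± 2.50 against 5.02 ± 4.06 CPM (SD, n = 3 each). Tob2, an adaptor that binds CNOT7 and CNOT8, measured 26.2, 20.7 and 4.66 CPM in wild type against 72.2, 9.92 and 78.2 CPM in Bud31-vKO, low in the 2 libraries with few genes detected.

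Among other deadenylation genes 5 of 11 were above 0, with a median of -0.10. Angel2, a member of the same enzyme superfamily as CCR4, measured 190, 191 and 183 CPM in wild type against 107, 118 and 108 CPM in Bud31-vKO. Both groups were tight and did not overlap. The log2 fold change of Angel2 was -0.77 ± 0.29 (SE) and stayed between -0.80 and -0.72 with each library left out. By edgeR its unadjusted p was 0.0287 and its adjusted p 0.9997. Pde12, which removes poly(A) in mitochondria, measured 37.5 ± 7.53 against 79.0 ± 32.1 CPM, and Angel1 63.8 ± 54.9 against 22.5 ± 25.6 CPM (SD, n = 3 each).

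Decapping and 5′ to 3′ decay genes split evenly, with 10 of 20 above 0 and a median of 0.09. Edc4, the scaffold of decapping, measured 204 ± 80.0 CPM in wild type against 98.0 ± 66.3 CPM in Bud31-vKO, while the 5′ exonucleases Xrn1 and Xrn2 had log2 fold changes of 0.57 and -0.41. Genes of the exosome and of other 3′ to 5′ decay split the same way, with 8 of 16 above 0 and a median of -0.02. Exosc5, a core subunit of the exosome, measured 205, 168 and 287 CPM against 105, 144 and 143 CPM. Dis3l2, an exonuclease of uridylated RNA, measured 20.9, 35.1 and 13.2 CPM against 42.0, 59.2 and 48.3 CPM. Neither pair of groups overlapped, and by edgeR their unadjusted p was 0.0542 and 0.128. Wdr61, a subunit of the SKI complex, measured 179 ± 63.4 against 118 ± 47.1 CPM (SD, n = 3 each).

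RNA-binding proteins that recruit CCR4-NOT, bind the same elements or oppose decay were below 0 in 15 of 25 cases, with a median of -0.38, and -0.02 in the 4 libraries with most genes detected. Elavl1, which encodes HuR and stabilises AU-rich mRNAs, measured 207, 141 and 230 CPM in wild type against 144, 80.3 and 106 CPM in Bud31-vKO. Only Bud31-vKO library 1 reached the wild type range, and by edgeR the unadjusted p was 0.0591. Tnrc6b, the microRNA effector that binds CNOT1, measured 109 ± 13.7 against 182 ± 51.6 CPM, and Cpeb1, a regulator of poly(A) length in germ cells, 79.1 ± 63.2 against 11.4 ± 12.1 CPM (SD, n = 3 each). Nanos2, the recruiter of CCR4-NOT in male germ cells, had 1 read in wild type library 1 and none in the other 5 libraries.

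Of the kinases, phosphatase and 14-3-3 proteins that act on ZFP36 proteins, 8 of 15 were above 0, with a median of 0.14, and 0.44 in the 4 libraries with most genes detected. Mapk14, the p38 kinase upstream of tristetraprolin phosphorylation, measured 122, 136 and 207 CPM in wild type against 139, 14.0 and 44.7 CPM in Bud31-vKO. Mapkapk3, a kinase downstream of p38, measured 6.71, 5.25 and 36.1 CPM against 16.9, 141 and 30.0 CPM, by far highest in Bud31-vKO library 2. Ywhaq, a 14-3-3 protein, measured 1290 ± 101 against 953 ± 121 CPM (SD, n = 3 each) with no overlap.

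Transcripts known as targets of AU-rich decay were above 0 in 22 of 35 tested cases, with a median of 0.24. At an unadjusted p under 0.05 edgeR had 4 of the 35 higher and 0 lower, against 1.08% and 1.82% of all tested genes, and 0 of the 35 had an adjusted p under 0.05. Nfkbia, the inhibitor of NF-kB, measured 355, 267 and 630 CPM in wild type against 734, 778 and 1220 CPM in Bud31-vKO, which is 1.13 on the log2 scale. Myc, named after its values were seen, measured 58.5, 36.9 and 78.1 CPM against 124, 101 and 129 CPM, a log2 fold change of 1.03. In both genes the groups did not overlap. Cxcl1, a chemokine, measured 82.0, 83.5 and 59.8 CPM against 778, 55.5 and 341 CPM, so that Bud31-vKO library 2 lay below all wild type libraries. Bcl6, a repressor of transcription, was counted in 1 read over the 3 wild type libraries and at 2.19, 0.856 and 6.06 CPM in Bud31-vKO.

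The size of the median of this target list varied with the libraries used. Its median was 0.06 without wild type library 1, 0.51 without wild type library 2, 0.56 when wild type library 3 was left out and 0.49 when Bud31-vKO library 1 was. In the 4 libraries with most genes detected 31 of 40 targets were above 0 (77.5%, against 52.6% of all genes tested there). There edgeR had 9 of the 40 targets higher and 1 lower at an unadjusted p under 0.05, against 2.89% and 3.67% of all genes tested there. The higher share, 22.5%, was near that of the immediate early genes in the same libraries (5 of 22, 22.7%). The 2 lists share 6 genes, Dusp1, Fos, Ier2, Ier3, Jun and Myc. Of the 45 genes in the list, 10 did not pass the filter on low counts. Csf3 and Nanog had no read, and the other 8, among them Il6, Il1b and Ccl4, had reads only in wild type library 1 and Bud31-vKO libraries 1 and 3. Tnf, which was tested and is the classic target of tristetraprolin, had 1.60, 0 and 0 CPM in wild type against 2.05, 0 and 61.1 CPM in Bud31-vKO, nearly all in 1 library.

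**Figure D4:**
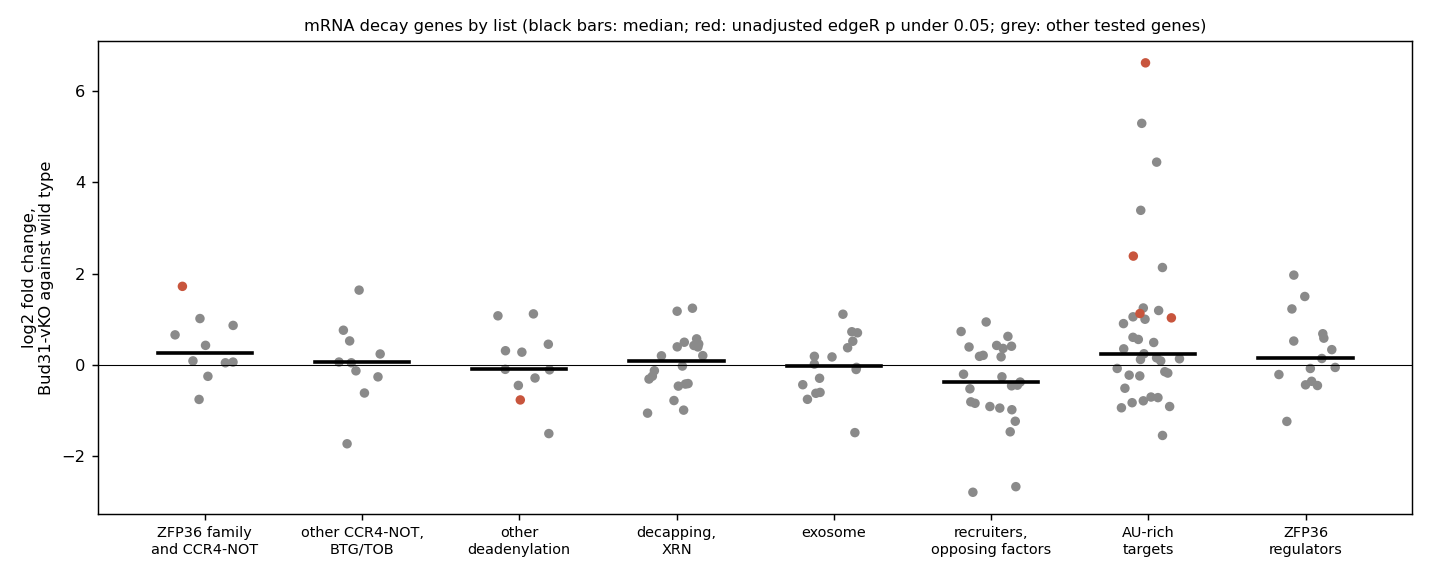
The log2 fold change of each tested gene (points; vertical axis, Bud31-vKO against wild type) in 8 lists, with list medians as black bars and genes at an unadjusted edgeR p under 0.05 in red. Medians lie between -0.38 for the recruiters and opposing factors and 0.26 for the ZFP36 family and CCR4-NOT genes, and the red points are Zfp36l2, Angel2 and 4 AU-rich targets.

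Across all genes the fold change was compared between mRNAs with and without the AU-rich motif. Of 13082 tested protein-coding genes with a 3′ UTR, 3932 held TATTTAT and had a median log2 fold change of 0.04, and the 9150 without it had one of -0.01. The gap of 0.04 was about as large as its spread between libraries of a genotype (SD 0.04). Genes with the motif had longer 3′ UTRs, with a median of 2132 against 816.5 bases. At an unadjusted edgeR p under 0.05, 60 genes with the motif were higher and 47 lower. Without the motif, 96 were higher and 209 lower. Within 5 classes of 3′ UTR length the gap ran from -0.02 to 0.05. In the class with most motif genes (1368), the gap of 0.0514 was larger than its SD between libraries, 0.0399. In each other class the SD was larger than the gap. For the 1034 genes with the 9-base core the gap was 0.03 over all lengths (SD between libraries 0.05). Within the length classes it ran from -0.14 for 58 genes with under 500 bases to 0.24 for 115 genes in the next class. In both of these classes the SD between libraries, 0.31 and 0.30, was larger than the gap. No test was run on these gaps, since genes are not independent replicates.

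The genes with the pattern most like that of Zfp36l2 were found by the root mean square difference of log2 CPM, each gene centred on its own mean, over the 6 libraries and 5323 other genes whose log2 CPM averaged 5 or more. They were Fhl2, a LIM-domain cofactor (difference 0.244), Rel, an NF-kB subunit (0.267), Aga, a lysosomal enzyme (0.275), Napg, a vesicle fusion factor (0.294), and Tns1, a focal adhesion protein (0.326). Rel measured 46.2, 33.8 and 22.7 CPM in wild type against 82.2, 76.3 and 120 CPM in Bud31-vKO. Among the 10 genes Cnot3 came nearest with a difference of 0.539, followed by Zfp36l1 at 0.600, Cnot8 at 0.693 and Zfp36 at 0.829. Zfp36l1, Cnot8 and Zfp36 ranked 199, 437 and 961, while Cnot3 and Cnot7 lay below the level limit and have no rank. Since Zfp36l2 was selected on its difference between the genotypes, genes near it share that difference by construction.

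Markers of lymphocytes, cells in which Zfp36l2 is known to be active, were by their sum also higher in Bud31-vKO. Within wild type, library 1 had the highest Zfp36l2 level (87.5 CPM) and the lowest marker sum. The 14 markers summed to 25.2, 115 and 103 CPM in wild type against to 227, 614 and 256 CPM in Bud31-vKO, with no overlap. Cd69, an activation marker named after its values were seen, had no read in wild type but 33.3, 32.8 and 35.0 CPM in Bud31-vKO. Of the 14 tested markers 10 lay above 0 on the log2 scale and 4 below, with values from -1.70 to 13.2. At an unadjusted edgeR p under 0.05, 3 were higher and 0 lower, against 1.08% and 1.82% of all tested genes. Bud31-vKO library 2 had the highest sum, although the T cell markers Cd3e, Cd3d and Cd2 were at 0 in it. Its Zfp36l2 level was 232 CPM, beside 222 and 224 CPM in Bud31-vKO libraries 1 and 3. Macrophage markers, 10 genes, summed to 78.4 to 212 CPM in wild type against 95.8 to 373 CPM in Bud31-vKO, where Ptprc, shared by all white blood cells, gave 328 CPM of the highest sum. C1qb and Adgre1 were at 0 in Bud31-vKO library 2. Sertoli cell markers, 13 genes, summed to 100 to 482 CPM against 212 to 1890 CPM, highest in Bud31-vKO library 1. The part of these cell types in the level of Zfp36l2 was not tested.

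**Figure D5:**
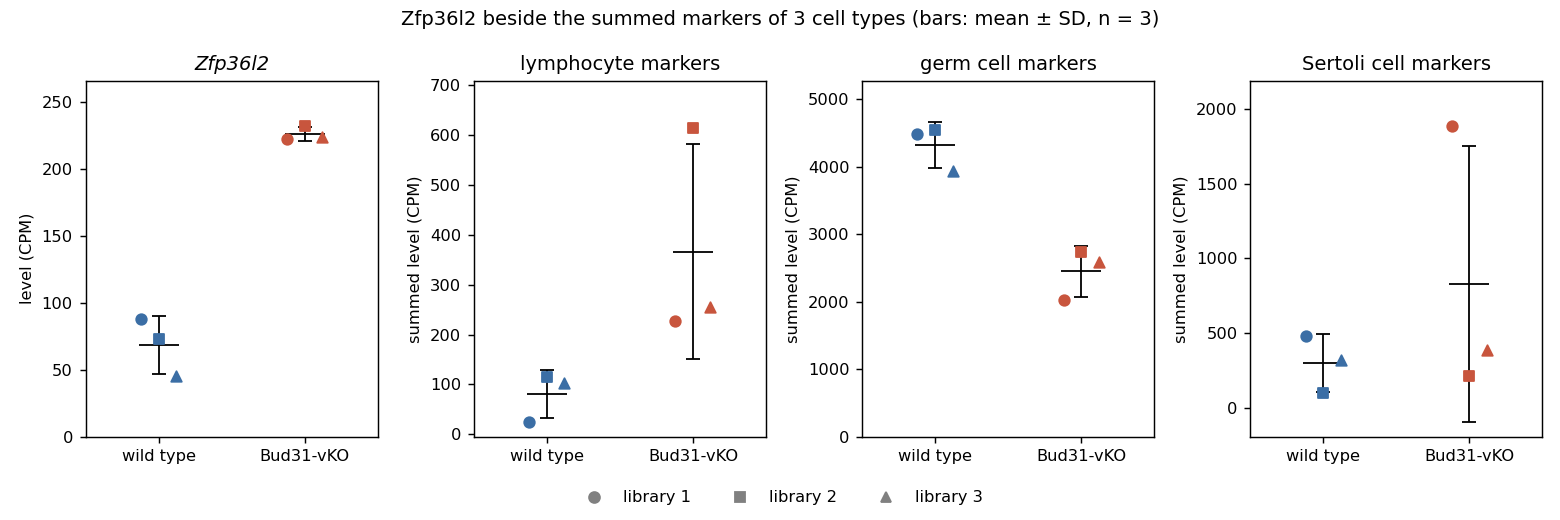
Zfp36l2 in CPM beside the summed CPM of 14 lymphocyte, 15 germ cell and 13 Sertoli cell markers in each library, with mean and SD as black bars (the lower Sertoli bar passes below 0 because of 1 high library). Zfp36l2 and the lymphocyte sum are higher and the germ cell sum is lower in all Bud31-vKO libraries. In Bud31-vKO Zfp36l2 measures 222 to 232 CPM and the lymphocyte sum 227 to 614 CPM. The part of these cell types in the level of Zfp36l2 was not tested.

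Immediate early genes, the class to which Zfp36 belongs and which cell dissociation also switches on, were above 0 in 17 of 22 tested cases, with a median of 0.31. The list shares 6 genes with that of the AU-rich targets. Their sums overlapped, at 8500, 18400 and 21500 CPM in wild type against 11900, 19000 and 18200 CPM in Bud31-vKO. Fosl2, chosen after its values were seen, measured 33.6, 87.0 and 42.6 CPM in wild type against 162, 153 and 155 CPM in Bud31-vKO, as tight in Bud31-vKO as Zfp36l2. Fos ran from 1980 to 11000 CPM within wild type alone, and Egr1 measured 2660 to 4320 CPM in wild type against 3500 to 5380 CPM in Bud31-vKO. The part of dissociation in the level of Zfp36 was not tested.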

How the data were processed

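For 6 Smart-Seq2 libraries the authors deposited raw counts, whole reads by Ensembl gene. Per the submitters' processing notes bcl2fastq was used and the genome build was mm10. For aligner, counter, annotation and strand: not given in the sources used here. GENCODE M21 (GRCm38, which is mm10) named 51719 of the identifiers (99.6%) and gave lengths, places and 3′ UTRs (the longest coding transcript with a complete end).

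In edgeR 4.0.16 filterByExpr kept genes (count minimum 10, total 15), TMM scaled the libraries and the quasi-likelihood test compared the genotypes with no covariate, adjusted by Benjamini-Hochberg over all genes at 0.05. Standard errors are the log2 fold change divided by the root of F, and 95% intervals use the t distribution. The steps were tested on simulated data. The 10 genes, the lists and the naming rule (all 10 genes, the 3 smallest p of each decay list, the 5 genes most like Zfp36l2, and Bud31) were chosen with earlier results of these data known. Alternatives were other scalings and filters, DESeq2 1.42.0, limma-voom (limma 3.58.1), a block for the library number, each library left out, and, added after seeing the data, the 4 libraries with most genes detected. R 4.3.3, Python 3.11.15 and matplotlib 3.10.9 were used.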

Additional observations from a re-analysis of the deposited data

How the results depend on the processing

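Of 150 values of the 10 genes under 15 alternatives, 138 kept their direction and their side of the threshold, and 6 of the genes kept their sign in all 15. Zfp36l2 passed with DESeq2 (log2 fold change 1.77, 1 of the 10 genes called) and in no other setting. Signs turned without wild type library 3 for Cnot1 (-0.06) and Cnot2 (-0.07), without Bud31-vKO library 1 for Cnot1 (-0.03) and Cnot6 (-0.32), without Bud31-vKO library 3 for Cnot1 (-0.11), without Bud31-vKO library 2 for Cnot2 (-0.36) and Cnot7 (0.21), without wild type library 2 for Cnot6 (-0.09), and in the 4 libraries with most genes detected for Cnot2 (-0.54) and Cnot7 (0.003). With each library left out Cnot1 ran from -0.11 to 0.31, Cnot2 from -0.36 to 0.38, Cnot6 from -0.32 to 0.23 and Cnot7 from -1.21 to 0.21. The cause was not tested. Over all genes edgeR called 0 higher and 0 lower (443 at an unadjusted p under 0.05), DESeq2 17 and 30 (753), limma-voom 0 and 0 (755), and edgeR without a filter 5 and 2, while each fit with 1 library left out called 0. With the replicate block for the library number 0 of the 10 genes and 0 of all genes were called, and Cnot6 turned to -0.0101. Same-numbered libraries correlated at 0.191, 0.0407 and -0.0756 in their deviations from the group means. Differently numbered ones ran from -0.208 to 0.11, the highest being wild type library 3 with Bud31-vKO library 2. The highest value of all pairs was that of the libraries numbered 1. With 3 libraries a group these values cannot decide whether the libraries were paired. The common biological coefficient of variation of 119% limits what 3 libraries a group can show.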
